A study of Mus musculus with 2 samples.

Results

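Fatty acid uptake and oxidation were examined through 10 genes: the fatty acid binding proteins Fabp3, Fabp4 and Fabp5, the uptake receptor Cd36, lipoprotein lipase (Lpl), the lipid droplet coat Plin2, the pyruvate dehydrogenase kinase Pdk4, the carnitine palmitoyltransferase Cpt1b, the long-chain acyl-CoA dehydrogenase Acadl and the uncoupling protein Ucp3. The genes were picked by symbol from the 32285 counted features of each library. Each of the 10 symbols occurred once, and all 10 genes had transcripts in both libraries.

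The QSC library was made from quiescent satellite cells (SCs, the stem cells of skeletal muscle) sorted from uninjured tibialis anterior (TA) muscle. The ASC library was made from activated SCs sorted 1.5 days after the TA had been injured with cardiotoxin (CTX), a toxin that destroys muscle fibres. Both came from mice aged 8 weeks that carried Pax7 CreERT2/+ together with Rosa26 mTmG/+, in which an inducible Cre made under the control of Pax7 switches a membrane reporter in SCs, so the reporter also marks later descendants of the recombined cells. Each library pooled the cells of 5 mice, and there was 1 library per group. Every difference below is therefore a difference between 2 libraries with no replicate check, no test was possible, and all intervals are 95% intervals that cover counting error only.

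Fibres take up fatty acids that Lpl releases from lipoproteins in the capillary bed, with help from Cd36 at the surface and from binding proteins in the cytosol. The fatty acids are stored in lipid droplets or coupled to carnitine by Cpt1b, the muscle form of the enzyme, for entry into mitochondria, where Acadl and other dehydrogenases begin each round of oxidation. Pdk4 shuts the pyruvate dehydrogenase complex and so turns fibres from glucose to fat, and Pdk4 and Ucp3 are known as fasting-responsive muscle genes. Fabp4 is best known from adipocytes, macrophages and capillary endothelium, and Fabp5 from skin, macrophages and growing cells.

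Levels are unique molecular identifiers (UMIs, 1 per captured transcript) per 1000000 UMIs of a set of barcodes (CPM), where a barcode stands for a droplet. The 516 QSC barcodes kept held 1162091 UMIs, with a median of 2155 per barcode, and the 1468 ASC barcodes held 8895815, with a median of 3502. A count of 3 UMIs in a whole library, used as the floor for genes at 0, equals 2.58 CPM in the QSC and 0.337 CPM in the ASC library. The libraries shared 4 barcode sequences, 2 of them kept in both. All 10 markers of quiescent SCs had UMIs in both libraries, but muscle fibre transcripts were abundant: 10 fast-fibre markers took 4.71% of QSC and 6.37% of ASC UMIs. Where these markers made up 5% or more of a barcode's UMIs, the barcode is called contractile-high (104 in the QSC and 941 in the ASC library), the other muscle barcodes contractile-low (368 and 412), and those of clusters named from macrophage, neutrophil or fibroblast markers non-muscle (44 and 115). The class is a cut through a range, with 0 QSC and 23 ASC barcodes between 4% and 6%. Of 7 adipocyte markers, Adipoq, Cidec, Lep, Retn and Cfd had no UMI in either library, Plin1 and Adig together had 10 in the ASC library, and none had a UMI in the QSC library.

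Over whole libraries, 1 of the 10 genes was at least 2-fold higher in the ASC library (Fabp5) and 5 were at least 2-fold lower (Fabp4, Cd36, Lpl, Pdk4 and Ucp3). Of the 7353 features that passed the same filter, a mean of 10 CPM over both libraries, 13.6% were as much higher, 22.6% as much lower and 36.2% either. All 10 genes passed it. The median log2 ratio of ASC over QSC was -1.05 for the 10 genes and -0.10 for all features that passed. Scaling by trimmed means (TMM) would raise every log2 ratio by 0.28, and the median gene with at least 20 UMIs in each library stood at -0.24. Under TMM the split over all features moved from 1001 higher and 1662 lower to 1519 and 1255, while 6 of the 10 genes were still past 2-fold. Fabp3, Plin2, Cpt1b and Acadl were within 2-fold. Log2 differences below are ASC over QSC.

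**Figure D1:**
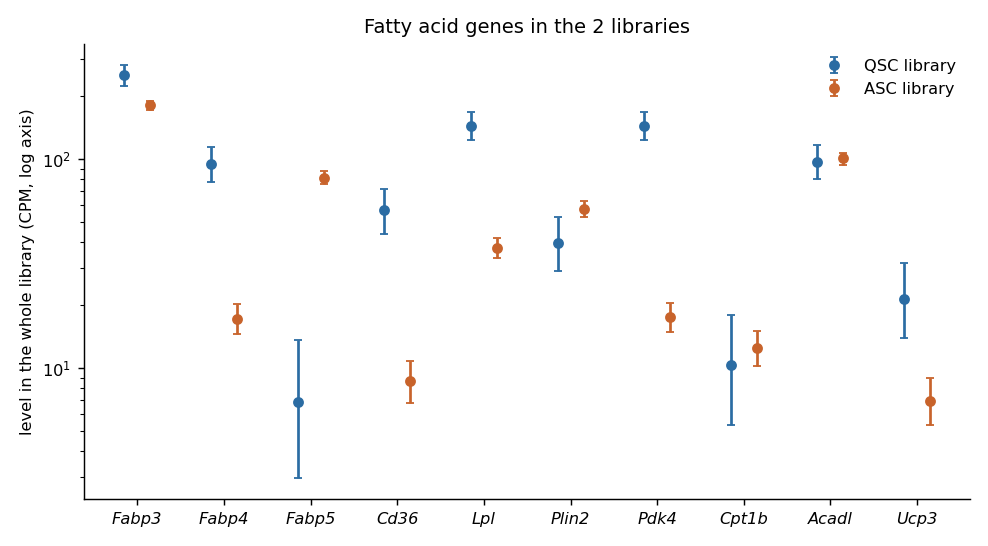
Level of each gene in the whole QSC (blue) and ASC (orange) library, in CPM on a log axis, with exact Poisson 95% intervals. The intervals of Fabp4, Cd36, Lpl, Pdk4 and Ucp3 lie lower in the ASC library and that of Fabp5 higher, while those of Cpt1b and Acadl overlap.

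Fabp3 was concentrated in fibre-rich barcodes and was lower there after injury. Fabp3 (chromosome 4, 130308595 to 130315463, plus strand, GRCm38) encodes the heart and muscle fatty acid binding protein. It had 293 UMIs in the QSC library, 252 CPM (224 to 283), and 1610 in the ASC library, 181 CPM (172.3 to 190.1), for a log2 difference of -0.48 (-0.66 to -0.29), which turned to 0.10 when each barcode was given the same weight. Contractile-high barcodes carried most of it in both libraries, 77.1% and 77.5% of its UMIs. Within them Fabp3 stood at 1054 CPM (921 to 1200.4) in the QSC and 412 CPM (389.7 to 436) in the ASC library, 2.56-fold lower after injury, a log2 difference of -1.35 (-1.56 to -1.14) that became -1.18 when set against the median gene of the class. Contractile-low barcodes did not differ beyond counting error, at 69.8 CPM (53.2 to 90.1) and 57.3 CPM (51.0 to 64.1).

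The Fabp3 of contractile-low barcodes was not above that of macrophage-like barcodes beyond counting error. After thinning every barcode to 1000 UMIs, 7.36% of contractile-low QSC barcodes (4.90 to 10.5) and 7.58% of contractile-low ASC barcodes (5.21 to 10.6) had a Fabp3 UMI. Macrophage-like barcodes, taken here as the background, had one in 2 of 16 QSC and in 11.9% of 84 ASC barcodes (5.86 to 20.8). Expression of Fabp3 in contractile-low barcodes was therefore not shown. For the QSC library the 16 barcodes, at 61.2 CPM (7.41 to 221), are too few to decide between background and expression. Without thinning, 54 of 368 contractile-low QSC, 175 of 412 contractile-low ASC, 2 of 16 macrophage-like QSC and 42 of 85 macrophage-like ASC barcodes had one, at median depths of 2223, 8444.5, 2024.5 and 6382 UMIs. Thinning left out 1 contractile-low QSC, 3 contractile-low ASC, 0 contractile-high QSC, 41 contractile-high ASC and 1 macrophage-like ASC barcode. Set against fibre RNA, there were 4.22 Fabp3 UMIs per 1000 fibre-marker UMIs in contractile-low, 5.83 in contractile-high and 3.93 in non-muscle QSC barcodes. The ASC library gave 3.02, 2.77 and 3.66. In each library the intervals of the 3 classes overlapped. Contractile-high barcodes had a Fabp3 UMI in 55.8% of the QSC (45.7 to 65.5) and 29.9% of the ASC library (26.9 to 33.0) at 1000 UMIs, and in 75 of 104 and 550 of 941 without thinning.

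Fibre barcodes were then divided by cluster. The 10 genes and the other pathway genes had been left out of the clustering. Contractile-high barcodes lay mainly in cluster 8 in the QSC library (97 barcodes, fibre-like, with Neb, Myh1 and Tcap among its leading genes) and in clusters 0, 3, 5 and 7 in the ASC library. Cluster 0 (375 ASC barcodes) was led by Ampd1 and the fast myosin Myh4, cluster 7 (108) by the slow-fibre gene Myl3 with Myoz2 and Mb, and clusters 3 (225, Mt3 and Trim63) and 5 (200, Ankrd1 and Csrp3) were not named. Cluster 7 is called slow for its leading genes, but no marker of slow fibres had a UMI in more than 45 of its barcodes (Myl3). Tnnt1 had one in 24, with 202 of its 877 UMIs in 1 barcode, and the fast myosin Myh1 in 62. Fabp3 was at 1074 CPM (935 to 1228) in QSC cluster 8 and at 925 CPM (823 to 1036) in the slow-fibre-like ASC cluster 7, which did not differ beyond counting error. ASC clusters 0 and 5 stood lower and not apart beyond counting error, at 372 CPM (340.1 to 406) and 373 CPM (328 to 422), and cluster 3 lowest of the 4, at 188 CPM (157 to 223). In QSC cluster 8, 69 of 97 barcodes had a Fabp3 UMI, and the highest held 31 of the 215.

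Fibre type markers also differed between these clusters. Markers of slow fibres took 0.877% of UMIs in ASC cluster 7, 0.038% in QSC cluster 8 and 0.00689% in ASC cluster 0. They took 0.012% in ASC cluster 5 and 0.00683% in ASC cluster 3. QSC cluster 8 and ASC cluster 7 were alike in Fabp3 but not in this share. ASC clusters 0 and 3 were alike in this share but not in Fabp3. Their fibre RNA differed as well: the fast-fibre markers took 17.0% of UMIs in ASC cluster 0 and 8.02% in ASC cluster 3. The same markers took 13.8% in ASC cluster 5, 12.7% in ASC cluster 7 and 18.3% in QSC cluster 8. Myh2, the myosin of oxidative fast fibres, was at 149.9 CPM (101 to 214) in QSC cluster 8, where 1 barcode held 18 of its 30 UMIs, at 210.3 CPM (163 to 267) in ASC cluster 7 and at 6.60 CPM (3.02 to 12.5) in ASC cluster 0. Myh7, the slow myosin, had no UMI in QSC cluster 8 and 24 in ASC cluster 7. Myh4, the fastest myosin, was at 455 CPM (366 to 558) in QSC cluster 8 and at 1134 CPM (1078 to 1191) in ASC cluster 0. Myh1, another fast myosin, was at 944 CPM (814.5 to 1089) in QSC cluster 8 and at 547 CPM (470 to 634) in ASC cluster 7. In ASC clusters 0, 5 and 3 it was at 194, 250 and 100 CPM. The parts of fibre type and of fibre RNA content in the Fabp3 differences were not tested. Without cluster 7, the contractile-high log2 ratio of Fabp3 was -1.55 (-1.76 to -1.33). The median mitochondrial share of contractile-high barcodes was 0.719% in the QSC and 0.175% in the ASC library, and with a limit of 1% the ratio was -1.11 (-1.36 to -0.86).

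**Figure D2:**
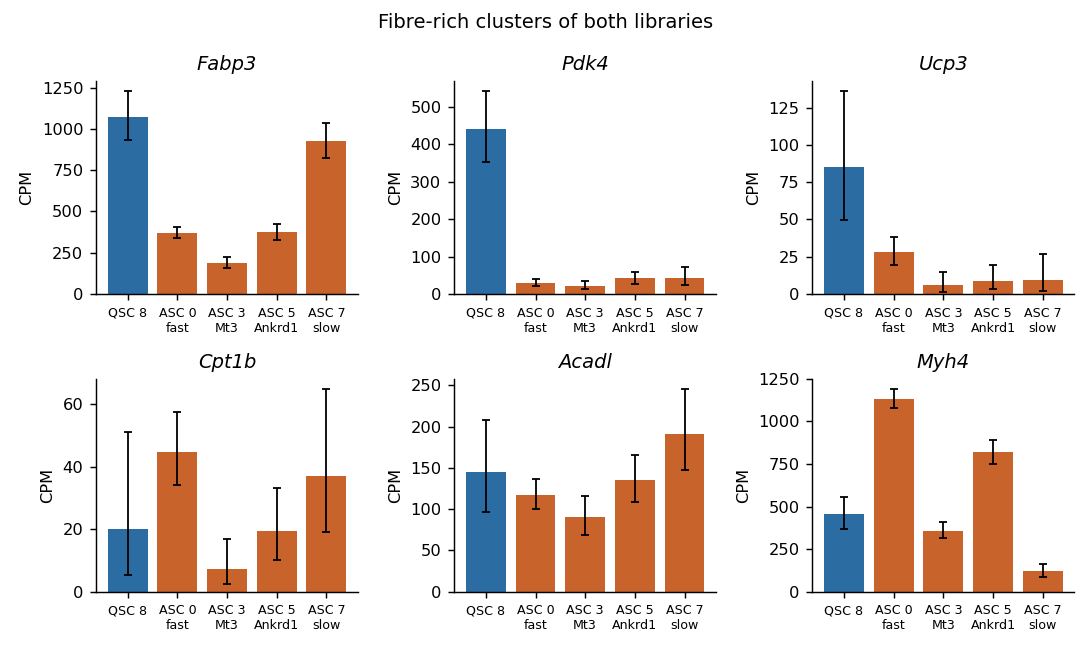
Levels (CPM, exact Poisson 95% intervals, axes from 0) of 5 fatty acid genes and of the fast myosin Myh4 in the fibre-rich clusters, QSC cluster 8 in blue and ASC clusters 0, 3, 5 and 7 in orange. Fabp3 in the slow cluster 7 and in QSC cluster 8 has overlapping intervals, whereas Pdk4 is at 440 CPM in QSC cluster 8 and at or below 43.3 CPM in all 4 ASC clusters.

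Most Fabp4 transcripts lay in a handful of endothelial-like barcodes. Fabp4 (chromosome 3, 10204088 to 10208576, minus strand) had 110 QSC UMIs, 94.7 CPM (77.8 to 114), and 153 ASC UMIs, 17.2 CPM (14.6 to 20.1), for a log2 difference of -2.46 (-2.82 to -2.09). A finer clustering (resolution 1) set apart 16 endothelial-like barcodes (cluster 13, 11 in the QSC and 5 in the ASC library, led by Aqp1, Fabp4 and Gpihbp1), each with UMIs of endothelial markers. All 9 endothelial markers had UMIs in both libraries, summing to 114 CPM in the QSC and 22.8 CPM in the ASC library. The 11 QSC barcodes held 96 of the 110 Fabp4 UMIs, and the 5 ASC barcodes 87 of the 153, with 52 in 1 barcode. Within the cluster the level was 7569 CPM (6131 to 9243) in the QSC and 6362 CPM (5096 to 7848) in the ASC library, so the libraries did not differ beyond counting error there. Without the cluster, Fabp4 was at 12.2 CPM (6.66 to 20.4) and 7.43 CPM (5.75 to 9.45), and the log2 ratio was -0.71 (-1.56 to 0.23). The interval included 0 once these 16 barcodes were left out.

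Cd36 (chromosome 5, 17781690 to 17888801, minus strand) was shared between those cells, macrophages and fibres. Cd36 had 66 QSC UMIs, 56.8 CPM (43.9 to 72.3), and 77 ASC UMIs, 8.66 CPM (6.83 to 10.8), for a log2 difference of -2.71 (-3.21 to -2.22). Of the 66, 27 lay in the endothelial-like barcodes, of which 8 had both Cd36 and Fabp4, and 18 in the 16 macrophage-like barcodes (cluster 9 of the finer clustering). Macrophage-like barcodes stood at 551 CPM (326.5 to 871) in the QSC and 22.01 CPM (11.4 to 38.4) in the ASC library. Whether they are the same kind of macrophage was not tested. Within contractile-high barcodes Cd36 was at 41.96 CPM (19.2 to 79.7) against 16.9 CPM (12.5 to 22.2), for a log2 difference of -1.32 (-2.35 to -0.11) on 9 and 51 UMIs. It was -1.21 (-2.30 to 0.09) without cluster 7, and with the mitochondrial limit of 1% it was -0.65 (-1.97 to 1.03) on 5 and 51 UMIs and no longer 2-fold. Without the endothelial-like cluster the whole-library log2 ratio was -2.13 (-2.71 to -1.52).

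Fabp5, another fatty acid binding protein, was higher after injury. Fabp5 (chromosome 3, 10012548 to 10016607, plus strand) lies on the same chromosome as Fabp4, 187 kb away with other genes between them. It had 8 UMIs in 7 QSC barcodes, 6.88 CPM (2.97 to 13.6), and 724 UMIs in 243 ASC barcodes, 81.4 CPM (75.6 to 87.5), 11.8-fold higher after injury, a log2 difference of 3.56 (2.58 to 4.78). In the ASC library Fabp5 was highest in the macrophage-like cluster 6, at 378 CPM (328 to 432), and then in cluster 4, at 127 CPM (114 to 141), a cluster of activated-like, cycling barcodes led by Rrm2 and Pclaf. These neighbours in the order differed beyond counting error, and so did clusters 4 and 3, the latter at 71.2 CPM (52.7 to 94.2). Within contractile-low muscle barcodes Fabp5 was at 8.28 CPM (3.33 to 17.1) in the QSC and 84.1 CPM (76.4 to 92.3) in the ASC library, for a log2 difference of 3.34 (2.29 to 4.67). At 1000 UMIs per barcode it was seen in 2 of 367 contractile-low QSC and in 7.33% of 409 contractile-low ASC barcodes (5.003 to 10.3), and without thinning in 6 of 368 and 135 of 412. Markers of macrophages or monocytes summed to 708 CPM in the QSC and 1125 CPM in the ASC library. Contractile-high barcodes had 0 QSC UMIs and 70 ASC UMIs, at least 1.65-fold higher against a floor of 3 counts.

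Lpl was lower after injury, and within the QSC library it was highest in endothelial-like and fibroblast-like barcodes. Lpl (chromosome 8, 68880491 to 68907448, plus strand), whose enzyme is secreted and acts at the capillary wall, had 167 QSC UMIs, 143.7 CPM (123 to 167), and 335 ASC UMIs, 37.7 CPM (33.7 to 41.9), for a log2 difference of -1.93 (-2.20 to -1.66). Contractile-low barcodes held 71.9% and 79.4% of these UMIs. Their level was 142.02 CPM (118 to 169.8) in the QSC and 50.6 CPM (44.7 to 57.1) in the ASC library, for a log2 difference of -1.49 (-1.80 to -1.17). The quiescent-like QSC cluster 1 (242 barcodes) stood at 156 CPM (125 to 191). In the ASC library, the unnamed cluster 2, led by Bgn and Acta2, was at 76.6 CPM (64.4 to 90.5), cluster 4 at 36.2 CPM (29.4 to 44.2) and the Myog-led cluster 9 at 32.6 CPM (19.9 to 50.4), the last pair not apart beyond counting error. The 17 fibroblast-like QSC barcodes (cluster 11) had 401 CPM (254 to 602) and the endothelial-like QSC barcodes 1498 CPM (902 to 2339), each on few UMIs, 23 and 19. At 1000 UMIs per barcode, 12.5% of contractile-low QSC (9.32 to 16.4) and 2.93% of contractile-low ASC barcodes (1.52 to 5.07) had an Lpl UMI, and none of the 84 macrophage-like ASC barcodes did (0 to 4.30). The order of these shares is that of the CPM, while without thinning the UMI was seen in 90 of 368 contractile-low QSC and 155 of 412 contractile-low ASC barcodes, and in 7 of 85 macrophage-like ASC barcodes.

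**Figure D3:**
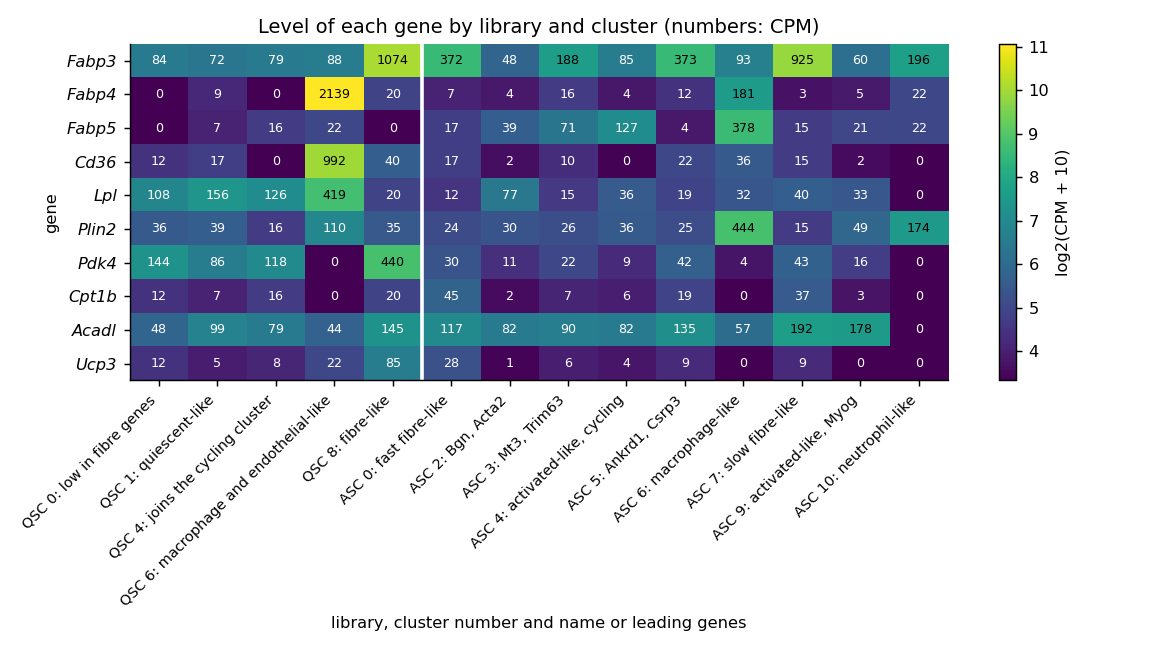
Level of each gene (rows) in every library-by-cluster group of at least 20 barcodes (columns, QSC left of the white line), printed as CPM rounded to whole numbers and coloured by log2(CPM + 10). Fabp3, Pdk4 and Ucp3 peak in QSC cluster 8, Fabp4 and Cd36 in QSC cluster 6, which holds the endothelial-like barcodes, and Fabp5 and Plin2 in ASC cluster 6.

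Plin2, which coats lipid droplets, was highest in macrophage-like barcodes of the ASC library. Plin2 (chromosome 4, 86648386 to 86670060, minus strand) had 46 QSC UMIs, 39.6 CPM (29.0 to 52.8), and 512 ASC UMIs, 57.6 CPM (52.7 to 62.8), for a log2 difference of 0.54 (0.10 to 1.01). Non-muscle barcodes held 50% of the ASC UMIs. In ASC cluster 6 the level was 444 CPM (390.2 to 502), in the 24 neutrophil-like ASC barcodes of cluster 10 it was 174 CPM (75.1 to 343), and in the other ASC clusters of at least 20 barcodes it ran from 15.5 to 49.0 CPM. Contractile-low muscle barcodes were at 33.1 CPM (22.02 to 47.9) in the QSC and 34.6 CPM (29.8 to 40.0) in the ASC library, for a log2 difference of 0.06 (-0.52 to 0.69). Without the non-muscle clusters the whole-library log2 ratio was -0.10 (-0.61 to 0.46). At 1000 UMIs per barcode Plin2 was seen in 25% of macrophage-like ASC barcodes (16.2 to 35.6) and in 2.44% of contractile-low ASC barcodes (1.18 to 4.45), and without thinning in 60 of 85 and 117 of 412.

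Pdk4, whose kinase holds back glucose oxidation, was lower after injury in both muscle classes, and in contractile-high barcodes its ratio was the largest of the 9 that could be measured there. Pdk4 (chromosome 6, 5483351 to 5496309, minus strand) had 168 QSC UMIs, 144.6 CPM (124 to 168), and 156 ASC UMIs, 17.5 CPM (14.9 to 20.5), an 8.24-fold lower level after injury, a log2 difference of -3.04 (-3.37 to -2.72). Within contractile-high barcodes it stood at 429 CPM (346 to 526) against 33.7 CPM (27.5 to 40.9), for a log2 difference of -3.67 (-4.09 to -3.25), and -3.78 without cluster 7 and -3.70 with the mitochondrial limit of 1%. Within contractile-low barcodes it stood at 87.6 CPM (68.8 to 109.9) against 9.89 CPM (7.39 to 12.97), for a log2 difference of -3.15 (-3.69 to -2.61). QSC cluster 8 had 440 CPM (353 to 542), with a UMI in 47 of 97 barcodes and at most 6 in one. The 4 fibre-rich ASC clusters lay between 21.8 and 43.3 CPM with overlapping intervals. Unlike Fabp3, Pdk4 did not keep to the ratio of fibre RNA: per 1000 fibre-marker UMIs there were 5.30 (4.16 to 6.65) in contractile-low and 2.38 (1.92 to 2.91) in contractile-high QSC barcodes. At 1000 UMIs, 31.7% of contractile-high QSC (22.9 to 41.6) and 3% of contractile-high ASC barcodes (1.99 to 4.33) had a UMI, and without thinning 48 of 104 and 91 of 941. At this depth macrophage-like barcodes had none in 16 QSC (0 to 20.6) and 84 ASC barcodes (0 to 4.30), and the contractile-low ASC share, 1.71% (0.691 to 3.49), lay within the latter interval, as the contractile-low QSC share, 8.99% (6.27 to 12.4), lay within the former. In CPM, macrophage-like barcodes stood at 3.67 (0.444 to 13.2) in the ASC library, below contractile-high barcodes but not apart from contractile-low ones.

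Ucp3, an inner-membrane carrier of muscle mitochondria, was likewise lower in contractile-high barcodes, on few counts. Ucp3 (chromosome 7, 100472990 to 100486432, plus strand) had 25 QSC UMIs, 21.5 CPM (13.9 to 31.8), and 62 ASC UMIs, 6.97 CPM (5.34 to 8.93), for a log2 difference of -1.63 (-2.32 to -0.89). Contractile-high barcodes had 79.3 CPM (46.2 to 126.9) against 18.5 CPM (14.0 to 24.0), for a log2 difference of -2.10 (-2.90 to -1.22). Among ASC clusters, the Myh4-rich cluster 0 was highest, at 27.9 CPM (19.7 to 38.2), and its interval did not meet that of cluster 5, at 8.92 CPM (3.27 to 19.4), though it overlapped that of the slow cluster 7, at 9.28 CPM (1.91 to 27.1).

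Cpt1b, the gatekeeper of mitochondrial entry, was counted too rarely to compare over whole libraries. Cpt1b (chromosome 15, 89416405 to 89425863, minus strand) had 12 QSC UMIs, 10.3 CPM (5.34 to 18.0), and 111 ASC UMIs, 12.5 CPM (10.3 to 15.03), for a log2 difference of 0.27 (-0.59 to 1.27). Contractile-high barcodes stood at 23.3 CPM (7.57 to 54.4) on 5 UMIs and 33.4 CPM (27.2 to 40.5) on 101 UMIs. Contractile-low barcodes stood at 8.28 CPM (3.33 to 17.1) on 7 UMIs and 1.90 CPM (0.91 to 3.50) on 10 UMIs. No macrophage-like barcode had a Cpt1b UMI, and the upper limits there were 113 CPM in the QSC and 6.77 CPM in the ASC library, so the contractile-low ASC level was not above that background. Within the ASC library, cluster 0 stood at 44.7 CPM (34.2 to 57.5) and the slow cluster 7 at 37.1 CPM (19.2 to 64.8), a difference within counting error, and cluster 3 was lower than both, at 7.27 CPM (2.36 to 17.0). Cpt1b shares 2744 exonic bases with the gene model Gm44502, on the same strand, which was not among the counted features.

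Acadl, an enzyme of the oxidation cycle itself, had the whole-library ratio nearest to 0 of the 10. Acadl (chromosome 1, 66830839 to 66863277, minus strand) had 113 QSC UMIs, 97.2 CPM (80.1 to 117), and 895 ASC UMIs, 100.6 CPM (94.1 to 107), for a log2 difference of 0.05 (-0.23 to 0.34). It was at 92.3 CPM (73.0 to 115) and 90.0 CPM (82.1 to 98.5) in contractile-low barcodes, and at 153.9 CPM (106 to 216) and 129 CPM (116 to 142) in contractile-high barcodes. Both of these ratios lay within counting error of 0, and that of contractile-low barcodes changed sign relative to the median gene, from -0.04 to 0.22. Among ASC clusters of at least 20 barcodes other than the neutrophil-like one, Acadl ran from 57.2 CPM (39.2 to 80.8) in the macrophage-like cluster 6 to 192 CPM (147 to 246) in the slow cluster 7 and 178 CPM (146 to 215) in the Myog-led cluster 9, the latter pair not apart beyond counting error. The 24 neutrophil-like barcodes had no UMI (0 to 80.2 CPM).

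The 10 genes were next read by class of barcode, against the share of all features that moved as far. Within contractile-low barcodes 6 of the 10 passed the filter, of which Fabp5 was at least 2-fold higher in the ASC library, against 17% of features, and Lpl and Pdk4 at least 2-fold lower, against 23% and against 39.9% in either direction. Cd36, Ucp3, Cpt1b and Fabp4 did not pass there. On few UMIs, Cd36 was at -3.64 (-5.34 to -2.11), with 12 in the QSC and 6 in the ASC library. Ucp3 was at -2.64 (-4.54 to -0.73), on 6 and 6. Cpt1b was at -2.12 (-3.66 to -0.49), on 7 and 10, and Fabp4 at -0.76 (-2.11 to 0.83), on 6 and 22. Within contractile-high barcodes all 10 passed. None of the 9 with a measured ratio was 2-fold higher, against 18.1%. For Fabp5 the 1.65-fold value rests on the floor and leaves a 2-fold higher level undecided. Fabp3, Cd36, Pdk4 and Ucp3 were lower, 4 of 10 against 12.6%, with 30.6% of features past 2-fold in either direction. Within non-muscle barcodes 7 passed, of which Fabp5, Plin2 and Acadl were higher, against 15.1%, and Fabp4, Cd36 and Lpl lower, against 31.9%, with 47.1% in either direction. The interval of Acadl there included 0, on 2 QSC UMIs. A gene can pass the filter through the library in which it is high, so these counts are descriptions. The non-muscle barcodes of the QSC library were 27 of cluster 6 and 17 fibroblast-like ones, and those of the ASC library were mostly the 90 of cluster 6 and 24 neutrophil-like ones, so cell types and library moved together there.

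**Figure D4:**
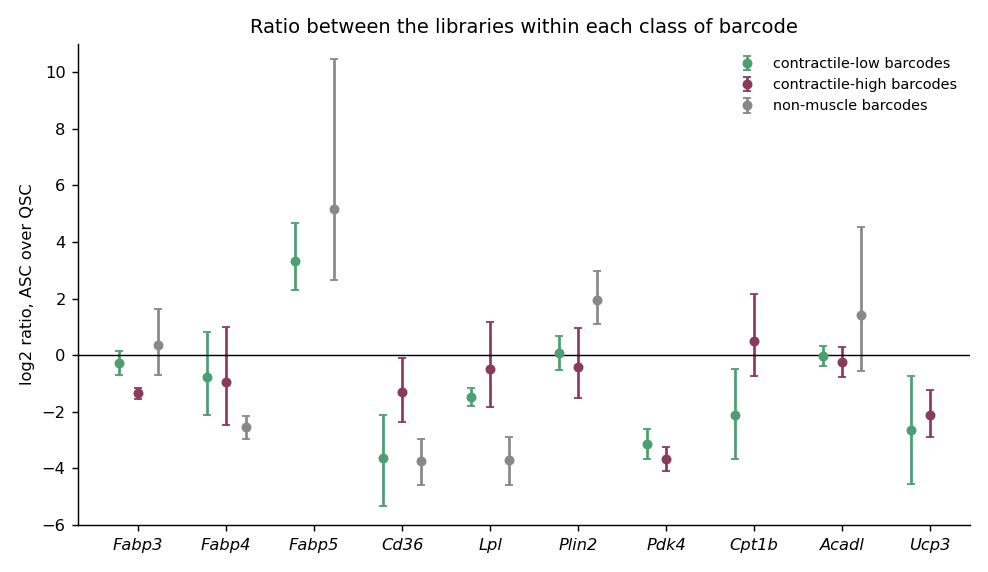
Log2 ratio of ASC over QSC for each gene within contractile-low (green), contractile-high (purple) and non-muscle (grey) barcodes, with exact conditional 95% intervals; a gene with no UMI on one side or too few on both has no point. Pdk4 lies at -3.15 and -3.67 in the muscle classes, the interval of Fabp3 lies below 0 in the contractile-high class and spans 0 in the other classes, and Plin2 is at 1.96 in non-muscle barcodes.

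Levels were also compared between the classes inside each library. In the QSC library 9 genes passed the filter, and contractile-high barcodes had at least 2-fold more of 6 (Fabp3, Fabp4, Cd36, Pdk4, Cpt1b and Ucp3), against 21.3% of features, and 2-fold less of 1 (Lpl), against 41.8%. In the ASC library 7 passed, with 3 higher (Fabp3, Pdk4 and Cpt1b), against 17.8%, and 2 lower (Fabp5 and Lpl), against 38.1%. Counted without that filter, 8 of the 10 differed 2-fold in one direction or the other, against 60.6% of features. Fabp3 was 15.1-fold higher in the contractile-high class of the QSC and 7.20-fold in that of the ASC library. Pdk4 was 4.90-fold and 3.41-fold higher, with log2 ratios of 2.29 (1.84 to 2.75) and 1.77 (1.27 to 2.28). Lpl was 6.09-fold and 3.06-fold lower, and Plin2 stood at -0.02 (-1.46 to 1.21) and -0.50 (-0.91 to -0.10) on the log2 scale. For Fabp4, Cd36 and Cpt1b the QSC values rested on 4, 9 and 5 contractile-high UMIs.

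Bases before the start of transcription were looked at for the genes with a RefSeq promoter entry (GRCm38.p6), which were Fabp3, Cd36, Plin2, Pdk4, Acadl and Ucp3. In the 250 bases before the start, on either strand, AGGTCA, the hexamer that peroxisome proliferator-activated receptors and other nuclear receptors bind, occurred in 3 of the 6 (Cd36, Plin2 and Ucp3) and in 14% of 32851 mouse promoters. The direct repeat AGGTCANAGGTCA, which contains the hexamer, was in none of the 6 and in 0.0335% of promoters. The E-box CANNTG was in 6 of 6 and in 66.2%, TATAAA in none and in 12.4%, and the MEF2 site in none and in 2.92%. The E-boxes of Fabp3 and Pdk4 lay 45 and 26 bases before the start. An annotated exon of these genes begins 143 and 31 bases before it, so both E-boxes lie past that point. The carriers of the hexamer are shown with Pdk4, which had none in this window and the largest measured ratio in contractile-high barcodes. Each is written 5' to 3' on the strand of the gene, up to the nearest annotated exon, with AGGTCA or its reverse complement in capitals. The Ucp3 stretch (chr7:100472741-100472989, plus strand) holds the hexamer in 2 places, the Cd36 stretch (chr5:17835897-17836146, minus strand) and the Plin2 stretch (chr4:86670061-86670309, minus strand) once each as TGACCT, and the Pdk4 stretch (chr6:5496310-5496528, minus strand) does not hold it.
Ucp3: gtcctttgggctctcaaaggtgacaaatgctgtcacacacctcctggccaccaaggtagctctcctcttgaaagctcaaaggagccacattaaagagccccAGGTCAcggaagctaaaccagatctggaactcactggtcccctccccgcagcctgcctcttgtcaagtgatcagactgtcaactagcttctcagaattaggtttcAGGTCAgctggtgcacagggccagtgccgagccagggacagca
Cd36: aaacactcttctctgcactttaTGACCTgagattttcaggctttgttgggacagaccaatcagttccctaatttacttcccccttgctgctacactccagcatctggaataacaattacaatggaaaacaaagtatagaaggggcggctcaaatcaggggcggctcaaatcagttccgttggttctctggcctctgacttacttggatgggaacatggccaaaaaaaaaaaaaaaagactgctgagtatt
Plin2: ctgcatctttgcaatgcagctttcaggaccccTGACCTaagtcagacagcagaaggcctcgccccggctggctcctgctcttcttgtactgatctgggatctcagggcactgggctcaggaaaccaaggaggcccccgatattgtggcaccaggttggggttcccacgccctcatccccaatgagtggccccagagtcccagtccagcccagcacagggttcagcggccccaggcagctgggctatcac
Pdk4: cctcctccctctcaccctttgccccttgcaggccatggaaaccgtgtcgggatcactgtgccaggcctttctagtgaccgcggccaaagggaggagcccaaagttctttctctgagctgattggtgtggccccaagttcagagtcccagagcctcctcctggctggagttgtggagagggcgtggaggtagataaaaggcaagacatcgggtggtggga
The carriers did not share a direction: Ucp3 and Cd36 were lower and Plin2 higher in the whole ASC library. A match of letters is a description and shows no binding, and the Cd36 stretch lies inside the annotated span of that gene.

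Other genes of the pathway were read from a list of 81 in 8 roles, of which 52 passed the filter over whole libraries. Of these 52, 3 were at least 2-fold higher in the ASC library, against 13.6% of all features that passed, and 5 lower, against 22.6%. The median log2 ratio was -0.25, against -0.10 for all features that passed. All 16 mitochondrial and peroxisomal oxidation enzymes passed, from -0.92 to 0.53 with a median of -0.39, and none was past 2-fold. Of these, 14 lay below 0, against 53.7% of all features that passed, 12 below the median gene, against 44.9%, and the intervals of 9 lay wholly below 0, against 35.3%. Among the 3 with the most counts, the electron carriers Etfb and Etfa were at -0.29 (-0.48 to -0.10) and -0.29 (-0.52 to -0.05), and the medium-chain dehydrogenase Acadm was at -0.69 (-0.93 to -0.43). Within contractile-high barcodes 15 of the 16 passed, 14 lay below 0, against 45.9% of features, and the intervals of 9 lay wholly below it, against 13.9%. Their median was -0.76, against 0.10 for the 5056 features that passed in that class. Only 1214 genes had at least 20 UMIs in each library there, with a median of -0.17. Features with fewer counts enter the feature shares with wide intervals, so these shares are not matched for counts. At least 2-fold lower in contractile-high barcodes were 2 of the 15, against 12.6% of features. Named after their values were seen, they were Etfdh at -1.63 (-2.48 to -0.68) and Eci1 at -1.11 (-1.52 to -0.67). In contractile-low barcodes 2 of 16 were as much lower, against 23% of features, and these were Acadvl at -1.33 (-1.67 to -0.99) and Acaa2 at -1.13 (-1.52 to -0.72). Within contractile-high barcodes Acadm was at 280 CPM and 145.7 CPM, for a log2 difference of -0.94 (-1.33 to -0.53). Etfb in that class was at 508 CPM and 273 CPM, -0.90 (-1.19 to -0.60).

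The partners of each member did not all follow it. Gpihbp1, the endothelial anchor that carries Lpl across the capillary wall, had 46 QSC and 24 ASC UMIs, for a log2 difference of -3.87 (-4.65 to -3.13), and 37 of the 46 lay in the 11 endothelial-like barcodes. Angptl4, an inhibitor of Lpl, was at 33.6 CPM and 38.8 CPM, for a log2 difference of 0.21 (-0.27 to 0.73), but its classes differed. The log2 difference was 0.98 (0.41 to 1.62) in contractile-low barcodes, on 26 and 320 UMIs. It was -1.75 (-3.20 to 0.01) in contractile-high barcodes and -3.58 (-5.76 to -1.68) in non-muscle ones, on 8 and 4 UMIs in the latter. The fatty acid transporter Slc27a1 was lower, at 53.4 CPM and 16.5 CPM, for a log2 difference of -1.69 (-2.13 to -1.24), and Dbi, which binds acyl-CoA, higher, at 233 CPM and 409 CPM, 0.81 (0.63 to 0.995). Pdha1, a subunit of the complex that Pdk4 acts on, was at 143 CPM and 140.3 CPM, -0.03 (-0.26 to 0.22). In contractile-high barcodes Pdha1 was at 392 CPM and 202 CPM, -0.96 (-1.29 to -0.61). Ucp2, the immune and general relative of Ucp3, was higher, at 18.1 CPM and 48.3 CPM, 1.42 (0.79 to 2.13), and Ucp1 had no UMI. Non-muscle barcodes held 314 of the 430 ASC UMIs of Ucp2, and in contractile-low barcodes its ratio was 0.93 (-0.04 to 2.10). Rxrg, a nuclear receptor that pairs with others, was at 9.47 CPM and 34.5 CPM over whole libraries, 1.87 (1.01 to 2.88). It was also among the leading genes of cluster 0, which held 38 QSC and 375 ASC barcodes. The part of fibre content in the Rxrg difference was not tested. The remaining genes past 2-fold, named after their values were seen, were Hilpda, which inhibits lipolysis, higher at 1.61, the hormone-sensitive lipase Lipe, lower at -2.67, the monoglyceride lipase Mgll, lower at -1.26, and Cpt1a, the liver-type relative of Cpt1b, lower at -1.14. Pdk2, another kinase of pyruvate dehydrogenase and also named after its values were seen, was at 62.8 CPM and 62.6 CPM over whole libraries. In contractile-low barcodes Pdk2 was lower, at 39.1 CPM and 15.2 CPM, -1.36 (-1.96 to -0.73). In contractile-high barcodes it was at -0.21 (-0.69 to 0.31). Crat, Slc25a20 and Cpt2 of the carnitine shuttle lay within 2-fold, at 0.24, -0.24 and 0.55. Of the droplet genes with the most counts, the coat protein Plin3 was at -0.05 (-0.37 to 0.29), the triglyceride lipase Pnpla2 at -0.23 (-0.57 to 0.13) and its inhibitor G0s2 at -0.34 (-0.63 to -0.04). The intervals of Lmf2, a relative of the lipase maturation factor, at -0.34, the acyl-CoA synthetase Acsl3, at -0.44, the malonyl-CoA decarboxylase Mlycd, at -0.12, and the nuclear receptor Rxrb, at -0.52, all included 0. Of the other pyruvate dehydrogenase subunits, Pdhb was at -0.28, with an interval that reached 0, and Dlat at 0.42 (0.06 to 0.81).

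**Figure D5:**
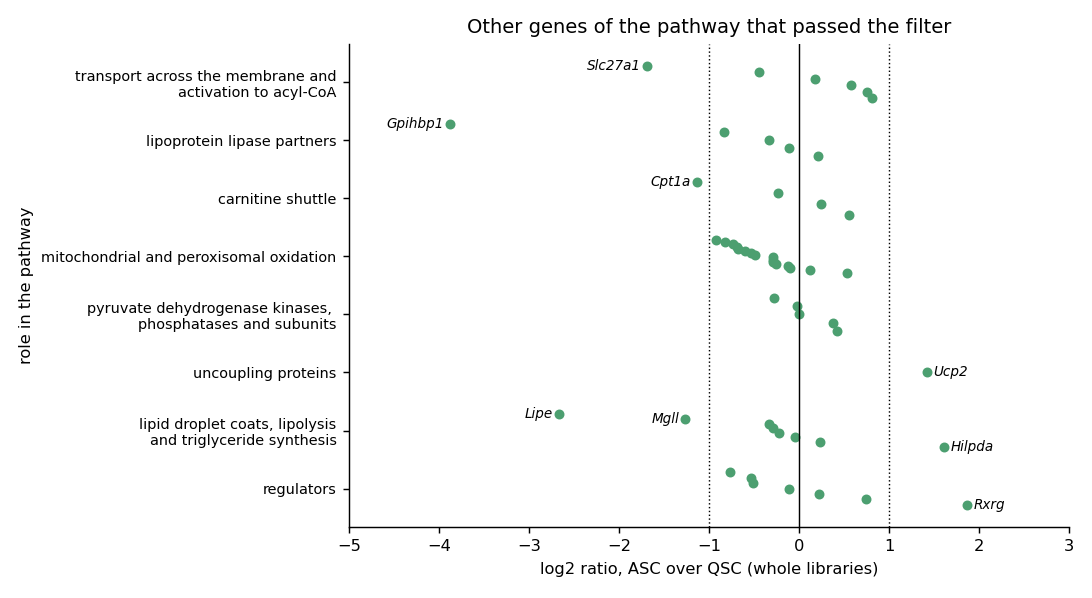
Log2 ratio of ASC over QSC over whole libraries for the 52 other pathway genes that passed the filter, by role, with dotted lines at 2-fold and the names of genes past them. The 16 oxidation enzymes lie between -0.92 and 0.53, while Gpihbp1 and Lipe lie farthest to the left.

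The genes whose levels followed each member most closely over the 14 library-by-cluster groups of at least 20 barcodes are given as a description, by Pearson correlation of log2(CPM + 10). The groups share 2 libraries, and their depth differs. Fabp3 went with Cox7a1 (0.978) and Cox8b (0.976), the muscle forms of cytochrome oxidase subunits, and with Tcea3, Vti1b and Eef1a2. Fabp4 and Cd36 both had Pf4 first (0.954 and 0.936), and Fabp4 went on with Csf1r, H2-Aa, C1qb and C1qa, all genes of macrophages; cluster 6 holds both the endothelial-like and the macrophage-like barcodes. Cd36 went on with Abcg2, C1qa, Aqp1 and Sgms1. Plin2 went with Clec4a1, Fyb, Cd53, Itgb2 and Clec4a2, genes of leukocytes, from 0.946 to 0.954. Pdk4 went with Phykpl (0.922), Chpt1, Dcaf6, Mn1 and Klf15, the last a transcription factor gene of fasting muscle, at 0.914. Acadl went with Fyttd1 (0.960), Prkaca, Sdhc, Pdha1 and Bccip, of which Sdhc and Pdha1 are genes of mitochondrial fuel use. Lpl went with Lrrc8a (0.954), Wls, Cyth3, Lifr and Plpp3, Cpt1b with Fbxo31 (0.921), Ndrg2, Tmem233, Gbe1 and Amhr2, and Fabp5 with Nipsnap3b (0.889), Myof, Tmem120a, S100a4 and Arpc4. Ucp3 had fewer than 100 UMIs and was not ranked.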

How the data were processed

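Single-cell 3' libraries (10x Genomics v2) of sorted satellite cells were deposited by the authors as raw counts: whole UMIs per gene and barcode. The submitters' processing notes name Cell Ranger 7.1.0, Seurat 4.1.0 and R 4.1.2 with the mm10 build, while the file headers name Cell Ranger 6.0.2; the annotation is not given in the sources used here. Of the 32285 features, 32158 carry an identifier found in GENCODE M21 (GRCm38, the assembly of mm10), whose coordinates are used.

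The members and the lists were chosen with earlier results of these data known. Barcodes with at least 500 genes and at most 10% mitochondrial UMIs were kept, 516 of 766 QSC and 1468 of 1650 ASC. The study's limit of 1% left 86 of 520 QSC and 948 of 1487 ASC barcodes with 500 genes and served as an alternative. No doublets were removed and free RNA was not subtracted. UMIs were summed per library and class and scaled to CPM, with exact Poisson intervals for levels, exact conditional binomial intervals for ratios and Clopper-Pearson intervals for shares, at 95%, for counting error only. No ratio was given where both sums were at most 3. Cells are not replicates, so no test was run. Shares were compared after thinning to 1000 UMIs, leaving out shallower barcodes (8 QSC and 45 ASC).

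Clusters came from Seurat 5.3.0 (R 4.3.3) with the study's settings at resolution 0.6, without the 10 genes and the pathway list among the variable genes, and were named from fixed markers. TMM factors came from edgeR 4.0.16. Pathway genes were named where they had 1 of the 3 highest mean CPM of their role. Correlated genes were the 5 highest among those with at least 100 UMIs. The ratio script was tested on simulated data. Fabp3 overlaps 81 exonic bases of Zcchc17 on the opposite strand, and strand handling is not given in the sources used here; processed pseudogenes of Fabp3 and Fabp5 were not among the counted features. Alternatives covered limits on barcodes, scaling, classes, thinning and filters.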

Additional observations from a re-analysis of the deposited data

Results flagged for a closer look

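For 3 genes the difference between the libraries pointed in opposite directions in 2 classes of barcode, with at least 1 class beyond counting error. The difference between the classes was not tested. The log2 ratio of ASC over QSC for Cpt1b was -2.12 (-3.66 to -0.49) in contractile-low barcodes, on 7 and 10 UMIs, and 0.52 (-0.75 to 2.17) in contractile-high barcodes, on 5 and 101 UMIs. For Plin2 it was 1.96 (1.10 to 2.98) in non-muscle barcodes, where the ASC library holds mostly macrophage-like and neutrophil-like barcodes, and -0.42 (-1.53 to 0.95) in contractile-high barcodes. For Fabp3 it was 0.35 (-0.72 to 1.63) in non-muscle barcodes, on 8 and 61 UMIs, and -1.35 (-1.56 to -1.14) in contractile-high barcodes. The non-muscle class includes the macrophage-like barcodes that were taken above as the background for Fabp3.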

How the results depend on the processing

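No paired analysis was possible because each group had 1 library and the labels give no replicate numbers, so no library could be left out either. The number of the 10 genes past 2-fold, 6 in all, lay between 5 and 7 under the 11 alternatives. Over whole libraries, the sign turned for Fabp3 with each barcode weighing the same (0.10), for Lpl under the 1% mitochondrial limit (0.0857, on 3 QSC UMIs), and for Plin2 in contractile-high barcodes alone (-0.30) and without non-muscle clusters (-0.10). Cpt1b and Acadl, whose intervals include 0, turned too: Cpt1b to -2.11 (-3.65 to -0.48) without contractile-high barcodes and -0.03 with all deposited barcodes under the mitochondrial limit, and Acadl to between -0.27 and -0.0080 under 5 alternatives. The cause of these turns was not tested. Under the 1% limit the whole-library ratios of Cd36, -0.86 (-2.17 to 0.82), and Fabp4, -1.03 (-2.50 to 0.92), had intervals that included 0. They rested on 5 and 4 QSC UMIs. That of Fabp3 was -1.27 (-1.51 to -1.02). Of its 157 QSC UMIs left under this limit, 156 lay in contractile-high barcodes. The alternatives without cluster 13, without cluster 7 and with the 1% limit inside contractile-high barcodes were added after seeing the data, and under the last Fabp3 moved to -1.11, Cd36 from -1.32 to -0.65, Fabp4 from -0.96 to -1.19 and Plin2 from -0.42 to 0.09. Without a filter on CPM, 8 of the 10 genes differed 2-fold between the contractile classes of the ASC library, and 5 with the class cut at 2%. Of the pathway list, 3 genes were higher and 5 lower, against 6 and 3 under TMM and 6 and 10 without the filter on CPM. Over all features 1001 were higher and 1662 lower, against 1840 and 3441 without the filter, 384 and 402 at a mean of 50 CPM, and 1519 higher under TMM. Depth limits Cpt1b and Ucp3 most, with 12 and 25 QSC UMIs, and Fabp5, with 8.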
